A study of Mus musculus with 6 samples.

Results

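The genes Afp, Igf2, Gpc3, Sox9, Sox4, Epcam, Cd24a and Prom1, which serve as markers of fetal hepatocytes, liver progenitor cells and hepatocellular carcinoma, were followed in the livers of mice with and without dietary steatohepatitis. They were chosen by symbol, with earlier results of these data known. The shares of all tested genes given below are therefore a reference and no test of the set. All 8 were found among the 21899 genes of the table. Their identifiers are ENSMUSG00000054932 (Afp), ENSMUSG00000048583 (Igf2), ENSMUSG00000055653 (Gpc3), ENSMUSG00000000567 (Sox9), ENSMUSG00000076431 (Sox4), ENSMUSG00000045394 (Epcam), ENSMUSG00000047139 (Cd24a) and ENSMUSG00000029086 (Prom1). The tested livers came from wild-type (WT) C57BL6J mice that had eaten a diet without methionine and choline (MCD) for 6 weeks, a common way to produce steatohepatitis with fibrosis in mice. The controls were WT C57BL6J mice on a diet with both nutrients (MCS). Each diet had 3 libraries of polyA RNA from whole liver, with no transgene or drug, and the comparison asks how the diet changes the liver transcriptome. Age and sex are not given in the sources used here, and the labels do not state that each library is its own animal; the tests below therefore rest on a spread between libraries that may be partly technical. The first principal component (70.8% of the variance) separated the diets, and the second (12.3%) set replicate 3 of both diets apart from the other libraries.

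Afp encodes alpha-fetoprotein, the albumin-like plasma protein of the fetal liver, which is silenced after birth and can return in regeneration and cancer. Igf2, an imprinted fetal growth factor, and Gpc3, a glypican that carries heparan sulfate on the cell surface, are also fetal liver products that reappear in liver tumours. Sox9 and Sox4 are HMG-box transcription factors of the developing bile duct, and Sox9 stays on in adult bile duct cells. Epcam (an epithelial adhesion molecule), Cd24a (a small GPI-anchored sialoglycoprotein) and Prom1 (CD133, a membrane protein of protrusions) are surface markers used to sort bile duct and progenitor cells. When hepatocytes are damaged for long, small duct-like cells spread from the portal tracts, a change called the ductular reaction.

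Promoter sequences, from 250 bases before to 50 bases after the annotated start, were available for 6 of the 8 genes (RefSeq, GRCm38.p6; the deposited data were made on GRCm39). The 5 below are shown because the first 4 belong to genes that rose and the last to the gene that had the lowest fold change; for Prom1 the more upstream of its start sites is given. Each runs 5′ to 3′ on the strand of its gene. Capitals mark every match, on either strand, to TATAAA (the box bound by the general factor TBP), GGAATG (core of TEAD factors), TGGGAA (core of RBPJ, the Notch effector) and GGGCGG (core of SP1).
Afp, chr5:90490464-90490763, plus strand: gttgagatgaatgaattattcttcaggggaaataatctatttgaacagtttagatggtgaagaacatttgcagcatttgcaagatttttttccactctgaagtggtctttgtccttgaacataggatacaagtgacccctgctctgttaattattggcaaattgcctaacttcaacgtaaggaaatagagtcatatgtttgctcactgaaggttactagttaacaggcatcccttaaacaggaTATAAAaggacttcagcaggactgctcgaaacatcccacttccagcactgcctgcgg
Sox4, chr13:28953650-28953949, minus strand: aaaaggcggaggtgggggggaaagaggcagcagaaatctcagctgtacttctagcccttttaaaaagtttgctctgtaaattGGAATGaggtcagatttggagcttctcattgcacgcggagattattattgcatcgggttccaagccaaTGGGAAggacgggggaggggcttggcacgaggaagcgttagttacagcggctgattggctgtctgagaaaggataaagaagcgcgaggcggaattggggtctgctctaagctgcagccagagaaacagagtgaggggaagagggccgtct
Epcam, chr17:87635729-87636028, plus strand: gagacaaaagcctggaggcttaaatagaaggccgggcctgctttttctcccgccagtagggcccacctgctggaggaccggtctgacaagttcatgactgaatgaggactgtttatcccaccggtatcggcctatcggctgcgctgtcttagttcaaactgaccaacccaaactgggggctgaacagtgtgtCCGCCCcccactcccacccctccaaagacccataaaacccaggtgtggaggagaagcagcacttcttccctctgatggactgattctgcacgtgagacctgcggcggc
Prom1, chr5:44101687-44101986, minus strand: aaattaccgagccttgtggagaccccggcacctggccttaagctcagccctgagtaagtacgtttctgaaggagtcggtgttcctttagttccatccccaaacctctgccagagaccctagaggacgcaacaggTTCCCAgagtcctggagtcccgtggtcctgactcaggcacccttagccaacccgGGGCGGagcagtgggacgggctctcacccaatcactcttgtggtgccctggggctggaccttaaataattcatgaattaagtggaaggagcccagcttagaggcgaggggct
Gpc3, chrX:52613925-52614224, minus strand: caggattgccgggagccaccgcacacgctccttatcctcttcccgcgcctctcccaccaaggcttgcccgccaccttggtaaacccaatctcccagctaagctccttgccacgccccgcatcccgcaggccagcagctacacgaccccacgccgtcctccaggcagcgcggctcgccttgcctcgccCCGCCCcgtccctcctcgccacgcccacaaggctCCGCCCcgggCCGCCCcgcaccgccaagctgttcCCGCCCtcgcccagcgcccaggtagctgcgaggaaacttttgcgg
These motifs were chosen after the values were seen. The Afp promoter alone among the 5 held TATAAA, starting 7 bases before the annotated start. TATAAA was found in 13.6% of 32851 promoter windows of the same length. Sox4 had GGAATG (in 14.7% of windows) and TGGGAA (25.6%), Prom1 had TGGGAA and GGGCGG (35.7%), Epcam had 1 GGGCGG and Gpc3 had 4. The GC content was 40.0% for Afp, 52.0% for Sox4, 57.0% for Epcam and Prom1 and 70.7% for Gpc3, against a median of 52.7% over all windows. Sox4 and Prom1 shared TGGGAA, Epcam and Prom1 shared GGGCGG, and no motif stood in all 4 of the printed promoters of genes that rose. The matches describe letters in these windows only.

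On the MCD diet 6 of the 8 genes rose: Prom1, Cd24a, Sox4, Epcam, Afp and Sox9, by 2.87-fold to 9.90-fold. Igf2 and Gpc3 did not pass the test. All 8 passed the filter on low counts, and the median log2 fold change over the 8 was 2.27, against 0.01 over all 12599 tested genes. Across those genes 14.8% rose and 9.97% fell, 24.7% in all, at the same threshold, a Benjamini-Hochberg adjusted p under 0.05 in edgeR's quasi-likelihood test over all tested genes. Of the 8 genes 0 fell by edgeR (0 also at an unadjusted p under 0.05, by DESeq2 and by limma-voom). For 7 of the 8 every MCD library lay above every MCS library, which was the case for 23.9% of all tested genes. A called rise above 4-fold was seen for 5 of the 8, Afp being just past that fold, and for 5.91% of tested genes. Levels below are CPM, which set a gene's count against its library total after TMM scaling, and differences are on the log2 scale, MCD over MCS, ± SE. Total counts per library were 16615469 to 21322771, so that 3 counts in a library stand for 0.104 to 0.227 CPM.

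**Figure D1:**
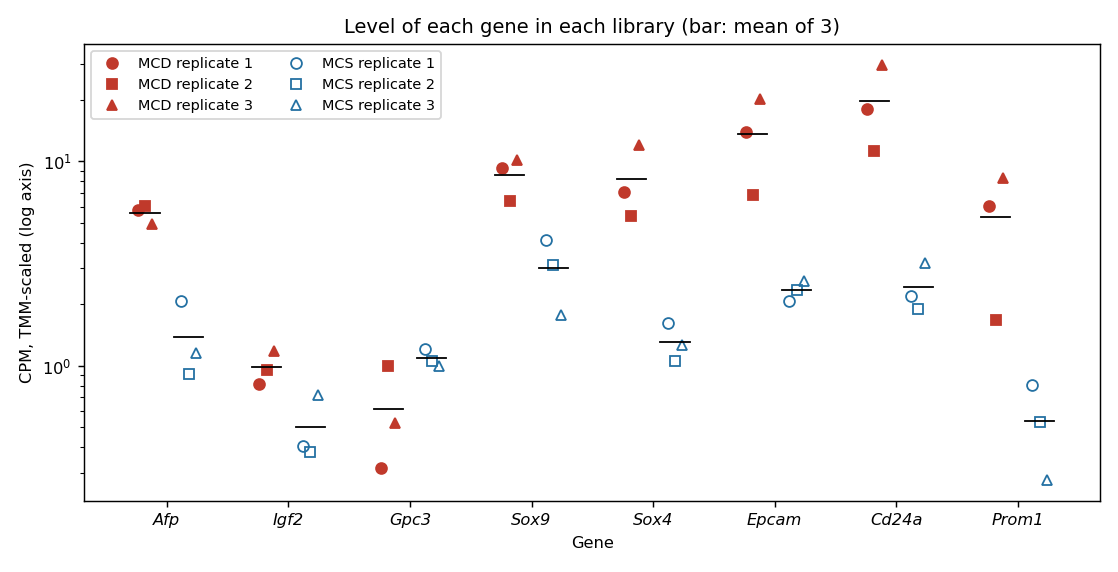
Level of each gene in each library in CPM (log axis), with filled red symbols for MCD, open blue symbols for MCS, a symbol shape per replicate number and a bar at the mean of 3. The diets overlap for Gpc3 alone, and MCD replicate 2 is the lowest MCD library for Sox9, Sox4, Epcam, Cd24a and Prom1.

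Of the fetal liver products, Afp rose. It stood at 5.80, 6.02 and 4.95 CPM in MCD replicates 1 to 3, against 2.07, 0.907 and 1.16 CPM in MCS replicates 1 to 3. The MCD libraries lay close together, and the lowest of them was more than 2-fold above the highest MCS library. The log2 fold change was 2.0 ± 0.36 (adjusted p = 0.00613, 95% interval 1.19 to 2.81), a 4.01-fold rise. Afp was the gene with the least spread among MCD libraries, with a highest to lowest ratio of 1.22, and the only one that rose without being highest in MCD replicate 3. Its level remained small beside that of Alb, the adult relative of Afp: 5.88 ± 0.50 TPM (SD, n = 3; a level corrected for transcript length) against 60430 TPM for Alb on MCD, and 0.914 ± 0.398 against 40140 TPM on MCS.

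Igf2 and Gpc3 were low in both diets, with 5 to 34 counts per library. Igf2 had 18, 21 and 34 counts in the MCD libraries and 7, 5 and 13 counts in the MCS libraries. In CPM these were 0.809, 0.950 and 1.18 on MCD and 0.403, 0.378 and 0.717 on MCS, with no overlap, but the log2 fold change of 0.96 ± 0.51 did not pass (adjusted p = 0.196, 95% interval −0.19 to 2.1). The interval includes no change as well as a rise of the size seen for Afp. In TPM the diets overlapped, at 0.475, 0.507 and 1.03 on MCD and 0.189, 0.565 and 0.358 on MCS. Gpc3 had 7, 22 and 15 counts in the MCD libraries and 21, 14 and 18 counts in the MCS libraries. MCD replicate 2, at 0.995 CPM, reached the lowest MCS library, MCS replicate 3 at 0.993 CPM, while MCD replicates 1 and 3 were lower, at 0.315 and 0.522 CPM. The log2 fold change of Gpc3 was −0.83 ± 0.54 (adjusted p = 0.285, 95% interval −2.05 to 0.39). The upper end of that interval lies below the lower end for each of the 6 genes that rose, the lowest of which was 0.75 for Sox9; the difference between genes was not itself tested.

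Both transcription factors rose. Sox4 was at 7.06, 5.43 and 12.1 CPM in MCD replicates 1 to 3, against 1.61, 1.06 and 1.27 CPM in MCS replicates 1 to 3. The lowest MCD library was above 3 times the highest MCS library, and MCD replicate 3 stood highest. Its log2 fold change was 2.63 ± 0.37 (adjusted p = 0.00225), 6.19-fold. Sox9 was at 9.26, 6.43 and 10.1 CPM on MCD, against 4.14, 3.10 and 1.77 CPM on MCS. Sox9 had the highest MCS level of the 8 genes in CPM and the smallest of the 6 rises (1.52 ± 0.34, adjusted p = 0.0144, 2.87-fold). The call for Sox9 ended without MCD replicate 1 (adjusted p = 0.0556) and without MCS replicate 2 (adjusted p = 0.0551), with log2 fold changes of 1.46 and 1.53.

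The surface markers had the steepest rises together with Sox4. Cd24a was at 18.1, 11.2 and 29.7 CPM in MCD replicates 1 to 3, against 2.19, 1.89 and 3.20 CPM in MCS replicates 1 to 3. Epcam was at 13.9, 6.83 and 20.2 CPM on MCD, against 2.07, 2.34 and 2.59 CPM on MCS. For both genes the order of the MCD libraries was replicate 3, then 1, then 2, and the MCS libraries were much closer to each other. The log2 fold changes were 3.01 ± 0.38 for Cd24a (adjusted p = 0.00165, 8.04-fold) and 2.54 ± 0.38 for Epcam (adjusted p = 0.00302, 5.83-fold). Prom1 was at 6.03, 1.67 and 8.32 CPM on MCD, against 0.805, 0.529 and 0.276 CPM on MCS. MCD replicate 2 was 4.97 times lower than MCD replicate 3 in Prom1, the widest spread of the 8 genes, yet still above every MCS library. Its log2 fold change was the largest of the 8 and the least certain of the 6 that rose (3.31 ± 0.65, adjusted p = 0.00892, 9.90-fold). With 26 counts in all over the MCS libraries, against 410 on MCD, the fold of Prom1 rests on a small denominator. By limma-voom Prom1 missed the threshold (3.16, adjusted p = 0.0751). Without replicate 3 of both diets, a setting chosen after seeing the data, the same 6 genes were called and the log2 value of Prom1 was 2.5 (adjusted p = 0.0181).

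**Figure D2:**
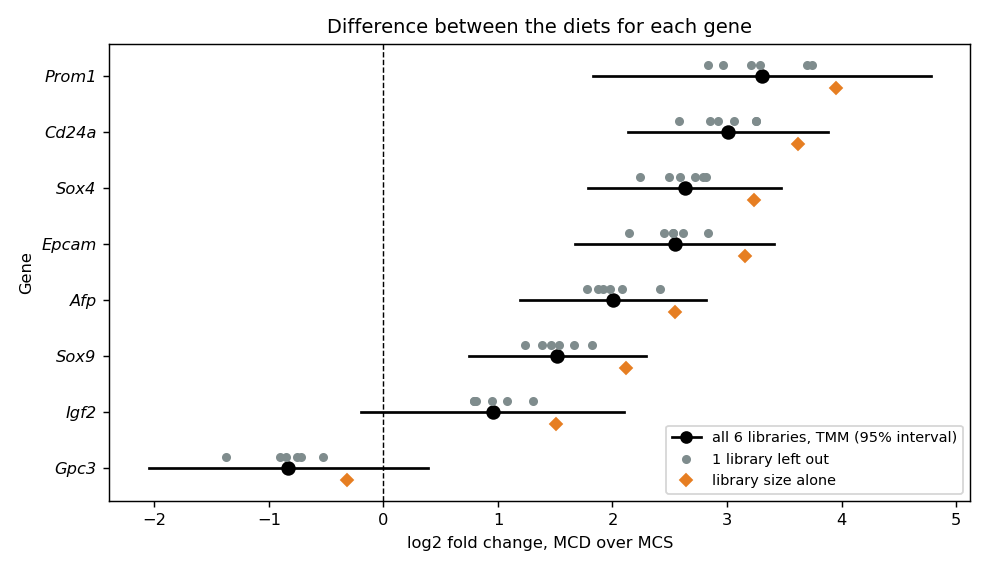
Log2 fold change of MCD over MCS for each gene: black points with 95% intervals use all 6 libraries and TMM scaling, grey points leave out 1 library, and orange diamonds scale by library size alone. The intervals of Igf2 and Gpc3 cross 0, and the order of the genes from Gpc3 at −0.83 to Prom1 at 3.31 can be read from bottom to top.

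Leaving out any 1 library kept the direction of all 8 genes, and 5 or 6 of them were called. Scaling by library size alone moved the median of all tested genes to 0.57 and those of Prom1, Cd24a, Sox4 and Epcam to 3.95, 3.62, 3.24 and 3.16; Igf2 then had an adjusted p of 0.0573 and Gpc3 a log2 fold change of −0.32. In the authors' deposited table, whose fold changes are ratios of mean TPM, the 6 genes had log2 fold changes of 2.25 for Sox9 to 4.13 for Prom1, and false discovery rates of at most 6.17e-06. Igf2 was at 0.86 with a false discovery rate of 0.138 in the authors' deposited table, and Gpc3 at −0.17 with 0.841.

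Per length, the 8 genes formed an upper, a middle and a lower band on MCD. Cd24a (25.1 ± 15.9 TPM) and Epcam (18.1 ± 11.4 TPM) were the most abundant, with Cd24a above Epcam in each MCD library although the libraries spread widely. Afp (5.88 ± 0.50 TPM), Sox9 (4.67 ± 1.76 TPM), Prom1 (4.25 ± 2.78 TPM) and Sox4 (3.92 ± 2.31 TPM) followed, and did not differ beyond their spread. Igf2 (0.671 ± 0.313 TPM) and Gpc3 (0.614 ± 0.307 TPM) were lowest. On MCS, Cd24a (2.04 ± 0.60 TPM) and Epcam (1.84 ± 0.28 TPM) also led, followed by Sox9 (0.984 ± 0.368 TPM), Afp (0.914 ± 0.398 TPM) and Gpc3 (0.693 ± 0.045 TPM). Sox4 (0.375 ± 0.082 TPM), Igf2 (0.371 ± 0.188 TPM) and Prom1 (0.242 ± 0.116 TPM) were the lowest there. Gpc3 was thus the fifth of the 8 on MCS and the last on MCD. Even on MCD these were not abundant transcripts: 29.8% of tested genes had a higher mean TPM than Cd24a, and 73.6% a higher one than Sox4.

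The genes also differed in how they varied between the 6 libraries. As a measure of likeness, the log2 CPM of each gene was centred on its mean, and the root mean square difference over the 6 libraries was taken. Sox4, Epcam and Cd24a were closest to each other, at 0.30 for Sox4 and Epcam, 0.33 for Epcam and Cd24a and 0.33 for Sox4 and Cd24a. Afp and Sox9 came next, at 0.48. Gpc3 was far from all the genes that rose, and the nearest of them was Sox9 at 1.36. Candidates were tested genes averaging 1 CPM or more, 11576 for most of the 8. The nearest to Cd24a were Adcy7 (0.10) and Soat1 (0.16), and the nearest to Epcam were Cxcl14 (0.14) and Loxl2 (0.14). Those nearest to Prom1 were the fibrillar collagens Col3a1 (0.21) and Col1a1 (0.22), and those nearest to Sox9 were Col12a1 (0.13) and Synpo (0.15). Sox4 was nearest to Evi2b (0.12) and Ltbp3 (0.13), and Icam1 (0.26) was among the 2 nearest to Afp. Igf2 was nearest to Itgb3bp (0.10) and Etv5 (0.13), and Gpc3 to Sult5a1 (0.18) and Cyp3a13 (0.19). These are descriptions over 6 libraries that share a diet contrast, and genes with a like contrast are near by that alone.

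Markers of bile duct and ductular cells moved with them. Of 16 such genes (none among the 8) 14 were tested, and 11 rose, with a median log2 fold change of 2.54, close to the 2.27 of the 8 genes. Their summed level was 560, 399 and 781 CPM in MCD replicates 1 to 3, against 167, 177 and 143 CPM in MCS replicates 1 to 3. The MCD order of replicate 3, then 1, then 2 was the one seen for Sox9, Sox4, Epcam, Cd24a and Prom1, but also for the macrophage, stellate and cycling cell marker sums given below and for the distance of the MCD libraries from the MCS libraries on the first principal component; 12 of the 14 were highest in MCD replicate 3. Elf3, an epithelial ETS factor, rose by 2.86 ± 0.36 (adjusted p = 0.00148). Cldn4, a tight junction claudin of duct cells, also rose (adjusted p = 0.00273), with 39, 28 and 100 counts on MCD against 2, 1 and 1 counts on MCS, too few for a fold. Cldn7, a claudin that binds EpCAM, rose by 2.78 ± 0.60 (adjusted p = 0.0128). The duct keratin Krt7 rose by 1.83 ± 0.44 (adjusted p = 0.0180), a call that ended in 4 of 6 fits with a library left out, while Krt19 did not pass (1.34 ± 0.48, adjusted p = 0.0709), although it passed by DESeq2 (adjusted p = 0.0391). Cldn7, Krt7 and Krt19 were named after their values were seen. In a bulk liver sample more cells of a type and more RNA per cell cannot be told apart.

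**Figure D3:**
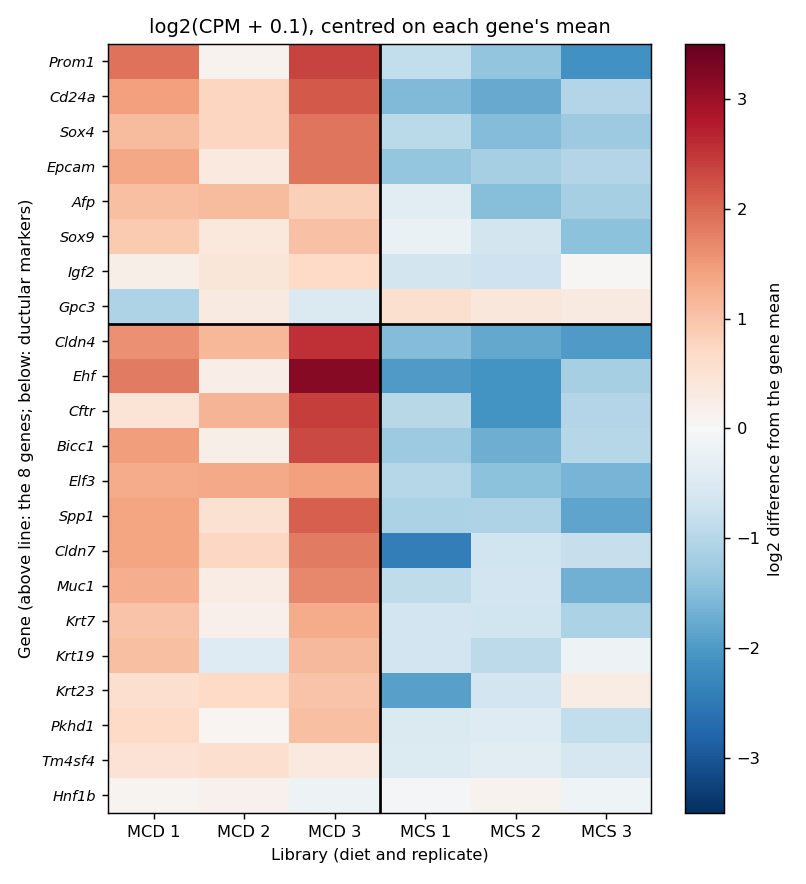
Each row is a gene and each column a library, with MCD on the left; colour is log2(CPM + 0.1) minus the gene's mean over the 6 libraries. Above the line the 8 genes, below it the 14 tested ductular markers; MCD replicate 2 is paler than MCD replicates 1 and 3 in most rows of both blocks, and in the Gpc3 row the MCS libraries are the higher ones apart from MCD replicate 2.

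Levels were also set against the ductular marker sum of the same library. Since that sum was higher on MCD, a gene with equal CPM in both diets is lower in this ratio: 82.6% of all tested genes had every MCD library below every MCS library, and 2.87% had every MCD library above. Cd24a amounted to 3.23%, 2.80% and 3.80% of the sum in MCD replicates 1 to 3, against 1.31%, 1.07% and 2.25% in MCS replicates 1 to 3. Sox4 amounted to 1.26%, 1.36% and 1.54% on MCD, against 0.964%, 0.597% and 0.890% on MCS. For these 2 genes every MCD library was above every MCS library. Gpc3 was lower in every MCD library, as most tested genes were. For Afp, Sox9, Epcam, Prom1 and Igf2 the percentages of the diets overlapped: Sox9, for example, had 1.65%, 1.61% and 1.29% on MCD against 2.48%, 1.75% and 1.24% on MCS. The sum rests largely on a pair of genes. Spp1 (osteopontin), which macrophages also make, took 43.9% to 66.8% of it on MCD and 23.8% to 33.9% on MCS, and Tm4sf4, a tetraspanin-like membrane protein, took 17.3% to 40.3% on MCD and 45.9% to 50.2% on MCS. The MCS mean of Tm4sf4 was 70.2 TPM, against 1.3 TPM for Krt19 and 0.381 TPM for Krt7. Which cells carry Tm4sf4 was not tested. Without Spp1, Tm4sf4 made up 52.1% to 71.8% of the remaining sum on MCD and 65.9% to 69.5% on MCS, so the ratio is then mostly one to a gene that rose 1.94-fold. Against that sum Cd24a, Sox4, Epcam, Afp and Prom1 did not overlap and were higher on MCD, as were 5.49% of tested genes, while 72.0% were lower without overlap. The gap was narrow for Prom1, whose lowest MCD library was at 0.748% against a highest MCS library at 0.730%, and for Afp, at 1.91% against 1.88%. Sox9 and Igf2 overlapped there too. With 3 libraries per diet an exact permutation test of such a ratio cannot give a p below 0.10, so these percentages are given without one.

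Other fetal and progenitor genes followed only in part. Of 9 further progenitor markers 7 were tested and 3 rose: Tnfrsf12a, the receptor of the progenitor mitogen TWEAK (2.42 ± 0.22, adjusted p = 0.000424), the hyaluronan receptor Cd44 (2.32 ± 0.27, adjusted p = 0.00126) and the adhesion molecule Icam1 (1.88 ± 0.14, adjusted p = 0.000202). Ncam1 (1.55), Thy1 (−0.06), Kit (−0.09) and Lgr5 (−0.57) did not pass, and Dlk1 and Foxl1 were too low to be tested. Across all tested genes 14.8% rose. The table held 10 further fetal liver and oncofetal genes, of which 6 were tested and 2 rose. Golm1, a Golgi protein raised in liver disease and liver cancer, rose by 3.66 ± 0.31 (adjusted p = 0.000340), and Igf2bp2, an RNA-binding protein of Igf2 mRNA, by 1.47 ± 0.37 (adjusted p = 0.0226), a call that ended in 4 of 6 fits with a library left out. Plagl1 (0.84), Mest (0.41), Cdkn1c (0.36) and Peg3 (−0.90) did not pass, although Peg3 was lower in every MCD library than in every MCS library. The oncofetal RNA-binding genes Igf2bp1 and Igf2bp3 and the fetal regulators Hmga2 and Lin28b were too low to be tested. H19 was not analysed here.

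Genes around Afp and its regulators showed small differences. Of 11 such genes, all tested, 2 fell and 9 did not pass. Afm, a neighbour of Afp in the albumin gene cluster, had −0.55 ± 0.17 (adjusted p = 0.0426), which was 0.11 on the log2(TPM + 1) scale (adjusted p = 0.535). The call of Afm also ended in 5 of 6 fits with a library left out. Zhx2, which represses Afp and Gpc3 in adult mouse liver, had 18.4, 19.9 and 16.6 CPM on MCD and 21.6, 20.3 and 21.0 CPM on MCS. Every MCD library was below every MCS library, but the difference did not pass (−0.20 ± 0.13, adjusted p = 0.305; 0.35 with library size alone). Alb itself stood at −0.04 ± 0.36 (adjusted p = 0.951; 0.47 with library size alone).

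In the IGF axis, which carries and senses IGF2, 1 of 14 tested genes rose and 2 fell, with a median of −0.33, where 14.8% of all tested genes rose and 9.97% fell. The balance depended on the scaling: 4 rose and 1 fell with library size alone and on log2(TPM + 1), and 1 rose and 4 fell by DESeq2. Igfbp3, a carrier protein of the IGFs, rose by 0.82 ± 0.23 (adjusted p = 0.0326). The insulin receptor gene Insr fell, with −0.74 ± 0.15 (adjusted p = 0.00944), as did Igfals, which holds IGFs in the large circulating complex, with −1.56 ± 0.34 (adjusted p = 0.0158). Each of these 3 calls ended in 3 or 4 of 6 fits with a library left out, and that of Insr also with library size alone (−0.19, adjusted p = 0.294).

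The calls among relatives of the 8 genes were all falls by edgeR with TMM. Of 17 other glypican, SOX and related genes 9 were tested and 3 fell (9.97% of all tested genes fell), among them the SOX genes Sox12 (−1.15 ± 0.26, adjusted p = 0.0155), a close relative of Sox4, and Sox6 (−0.88 ± 0.20, adjusted p = 0.0161). With library size alone 0 of the 3 were called, and Sox12 and Sox6 had −0.59 and −0.31; with 1 library left out 0 to 4 fell. By edgeR with TMM 0 rose (1 at an unadjusted p under 0.05, 1 by DESeq2 and 0 by limma-voom). Gpc6, another glypican, had 1.63 ± 0.54 with an adjusted p of 0.0561, which was 0.0360 by DESeq2 and 0.0255 with library size alone (2.23). Gpc6 was named after its values were seen.

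Of 15 genes of the Notch, YAP and TGF-beta routes that act on Sox9 and Sox4, 14 were tested and 7 rose, with a median of 1.01, where 14.8% of all tested genes rose. Wwtr1, which encodes the YAP partner TAZ, rose by 0.96 ± 0.13 (adjusted p = 0.00181), and the ligand gene Tgfb2 by 3.20 ± 0.61 (adjusted p = 0.00772). Tgfb2 had 67, 35 and 169 counts on MCD against 7, 7 and 4 on MCS, so its fold rests on a small denominator. Without MCD replicate 1, MCS replicate 1 or MCS replicate 2, 3, 4 or 2 of the 14 rose, and 12 with library size alone. By edgeR with all libraries Heyl (1.59), Hey1 (1.44), Tgfb1 (1.36), Ccn1 (0.56), Notch2 (0.06), Hes1 (−0.02) and Yap1 (−0.29) did not pass. Yap1 was lower in every MCD library than in every MCS library.

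**Figure D4:**
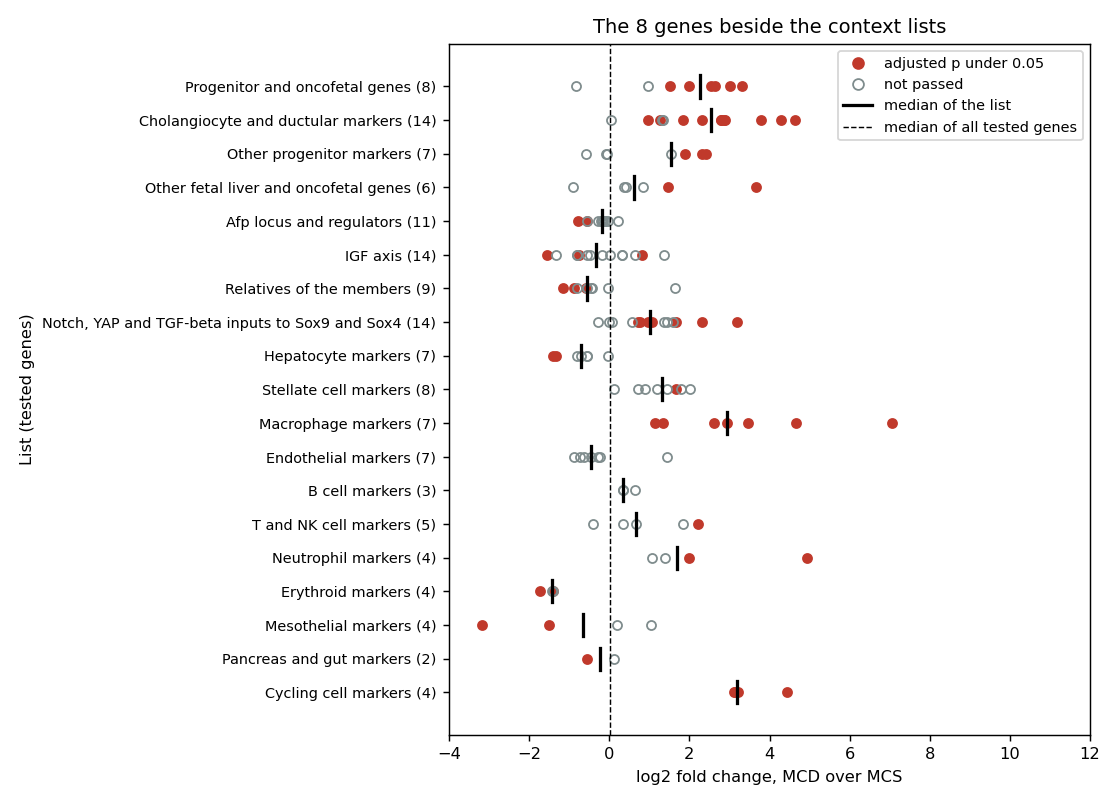
Log2 fold change of MCD over MCS for every tested gene of each list, with red points for an adjusted p under 0.05, open points for the rest, black ticks at list medians and a dashed line at the median of all tested genes (0.01). The 8 genes, the ductular markers, the macrophage markers and the cycling cell markers have medians above 2.

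Markers of other cells that can carry these transcripts were read in the same libraries. Hepatocyte markers were present at high levels in all 6 libraries (52980 to 86840 CPM summed over 7 genes on MCD and 73720 to 95650 on MCS). Most of that sum was Alb, with a mean of 57710 CPM on MCD and 59230 CPM on MCS. Of the 7 genes 2 fell, against 9.97% of all tested genes. That count was 0 without MCD replicate 1 or MCS replicate 2, 4 without MCD replicate 2 and 5 by DESeq2. The median log2 fold change of the 7 was −0.71. For 5 of them every MCD library lay below every MCS library, which was the case for 21.3% of tested genes. Macrophage markers summed to 1517, 1086 and 2796 CPM in MCD replicates 1 to 3, against 178, 184 and 237 CPM in MCS replicates 1 to 3, and 7 of 7 rose. Stellate cell markers summed to 457, 219 and 846 CPM on MCD, against 152, 145 and 318 CPM on MCS, and 1 of 8 rose (6 with library size alone, 5 by DESeq2, and 0 to 5 with 1 library left out). Endothelial markers summed to 75.2, 55.7 and 293 CPM on MCD, against 88.0, 123 and 371 CPM on MCS, and 0 of 7 passed by edgeR (0 at an unadjusted p under 0.05, 0 by DESeq2 and 0 by limma-voom), while 2 fell without replicate 3 of both diets and 2 with a replicate block. In both diets replicate 3 was highest for 8 of 8 stellate cell and 7 of 7 endothelial markers, and among MCD libraries it was highest for 7 of 7 macrophage markers.

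Cd24a is also made by B cells, neutrophils and erythroid precursors. B cell markers summed to 14.4, 8.01 and 13.6 CPM on MCD, against 7.94, 6.95 and 12.3 CPM on MCS. Neutrophil markers summed to 9.44, 6.88 and 23.7 CPM on MCD, against 4.78, 2.95 and 4.19 CPM on MCS; 2 of the 4 tested rose (1 without MCS replicate 1 or MCS replicate 2). Erythroid markers were lower on MCD, at 134, 107 and 223 CPM, against 451, 318 and 567 CPM on MCS, and Alas2 fell by 1.73 on the log2 scale (adjusted p = 0.000485). T and NK cell markers summed to 2.97, 2.49 and 7.35 CPM on MCD, against 0.920, 1.51 and 3.70 CPM on MCS. Cycling cell markers, 4 of 4 of which rose, summed to 17.0, 8.05 and 19.6 CPM on MCD, against 1.78, 1.81 and 0.938 CPM on MCS. Of 7 pancreas and gut genes Cpa1, Pnlip and Cdx2 were at 0 in all 6 libraries, Cela2a had 3 to 10 counts on MCD and 4 to 11 on MCS, Ctrb1 had 2 counts in 1 MCS library, and Fabp2 and Lgals4 were tested. Mesothelial markers summed to 1.90 to 2.97 CPM on MCD and 2.64 to 7.06 CPM on MCS. The part of these cells in the levels of the 8 genes was not tested.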

How the data were processed

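Liver RNA of 3 MCD and 3 MCS libraries was profiled, with the diet taken from the sample titles. The submitters' processing notes name RSEM, HISAT2 2.1.0 and Bowtie2 2.2.8, as well as StringTie 1.3.1 and fastp 0.18.0, with GRCm39 as genome build. The deposited counts are whole numbers, treated as rounded expected counts because a TPM above 0 stands beside a count of 0 in 64 places. The TPM values deposited by the authors give a level per transcript length within each library. The authors' deposited table also gives a log2 fold change of mean TPM, a p-value and an FDR, from a test that the sources used here do not name.

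Counts were fitted in R 4.3.3 with edgeR 4.0.16 (filterByExpr, minimum count 10; TMM; robust quasi-likelihood test; diet as the only term); 12599 genes were tested. SE is the log2 fold change over the square root of F. Floors of 3 counts cover counting error only. The script was tested on simulated data. Replicates of a diet all differed by more than sampling noise (chi-square over its degrees of freedom 14.0 or more). Reads of Afp, Sox4, Gpc3, Prom1 and Igf2 could include those of overlapping genes on the other strand, since strand is not stated. On the same strand Igf2 overlaps the protein-coding gene Gm49394, which the deposited data list separately, and Prom1 overlaps Gm42716. How reads were divided between these genes was not tested. Alternatives used limma 3.58.1 and DESeq2 1.42.0.

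The members and lists were chosen with earlier results of these data known. From each list the rule names up to 2 called genes with the smallest p per direction, or the most abundant gene if none was called; some of these are not reported here. Other named genes were chosen after their values were seen.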

Additional observations from a re-analysis of the deposited data

How the results depend on the processing

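The calls of Afp, Sox4, Epcam and Cd24a and the lack of a call for Igf2 and Gpc3 held under every alternative in which they were tested; with a minimum count of 30 Igf2 and Gpc3 were not tested. Sox9 and Prom1 lost their calls where given above. The number of genes called, 3117 (1861 up, 1256 down), was 5443 (5095 up, 348 down) with library size alone, 5713 (5449 up, 264 down) on log2(TPM + 1) and 5992 (5718 up, 274 down) on log2(TPM + 0.1), where 93.6%, 95.4% and 95.4% of calls were upward, against 59.7%; the median of the 8 genes was 2.85, 1.8 and 2.78 there. With 1 library left out, 1347 to 4435 genes were called, 946 to 2363 up and 400 to 2072 down, and the context lists had 29 to 67 called genes in place of 53; the 3 lowest totals, 1347, 1379 and 1472, came when MCS replicate 2, MCS replicate 1 and MCD replicate 1 were dropped. The 8 genes had 5 or 6 calls and a median of 2.11 to 2.43 there. Without replicate 3 of both diets, chosen after seeing the data, 6 were called.

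Of genes that did not pass or lost their call, Afm had 0.11 on both TPM scales, Zhx2 0.35, 0.41 and 0.46 with library size alone and the TPM scales, and Alb 0.47, 0.62 and 0.62 there, 0.13 without MCD replicate 3, 0.14 without MCS replicate 3, 0.32 without both and −0.25 to 0.14 over all fits with 1 library left out (its adjusted p was 0.0452 on log2(TPM + 0.1)); the cause of these changes of sign was not tested. A replicate block gave 3283 calls, 6 among the 8 genes. Same-numbered libraries deviated together with correlations across genes of 0.06, 0.15 and 0.25, against −0.22 to 0.13 for libraries with different numbers. Whether the numbers mark pairs cannot be told from the labels, and the main fit did not use them. Depth limits Igf2, Gpc3 and the MCS level of Prom1, which rest on 25 to 73 counts per diet.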

Other observations

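The counts behind 1 TPM, which follow the transcript length that the authors' estimation gave a gene, were set relative to the median tested gene of each library. For Afp, Sox9, Sox4 and Epcam the highest of the 6 libraries was 1.01 to 1.02 times the lowest. For Prom1 the value was 0.827, 1.08 and 1.37 in MCD replicates 1 to 3, against 1.37, 0.810 and 1.37 in MCS replicates 1 to 3, a highest to lowest ratio of 1.70 that 6.51% of tested genes exceeded. Prom1 therefore had 5.88 and 5.81 TPM in MCD replicates 1 and 3, but 6.03 and 8.32 CPM. For Igf2 the ratio was 4.18, with MCS replicate 2 (5 counts) at 0.329 against 1.07 to 1.38 in the other libraries, and 0.532% of tested genes exceeded it. For Cd24a MCS replicate 1 stood at 0.500, against 0.671 to 0.681 in the other libraries. The cause was not tested.

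Among the 8 genes, MCD replicate 3 was the highest MCD library for 6 and MCD replicate 2 the lowest for 5. Among MCS libraries, replicate 1 was highest for 5 and replicate 3 for 3.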
